A study of Mus musculus with 6 samples.

Results

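The genes described here encode proteins of 2 linked groups, the SP100 and PML components of nuclear bodies and the PARP family of ADP-ribosyltransferases with a ubiquitin ligase partner. They are 9 genes, Sp100, Sp110, Pml, Parp9, Parp12, Parp14, Dtx3l, Parp1 and Parp2, of 18193 genes with a symbol on the array. All 19 probe sets that the platform annotation assigns to one of these symbols alone were taken, of 45037 probe sets other than array controls. The genes were chosen with their measured signals in the same comparison of fetal liver with bone marrow known, so their differences below are a description and carry no p-value. Where one of them is said to be past a threshold, that too is a description and not a test of it. Of the 19 probe sets, 18 passed the filter on dim signals, and each of the 9 genes kept at least 1 probe set.

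Megakaryocyte progenitors (MkP), the sorted blood precursors of megakaryocytes and platelets, came from wild-type C57BL/6 mice in both groups. The bone marrow group held 3 samples of adult mice aged 12 to 18 weeks, and the fetal liver group held 3 samples taken at E13.5, before birth. Cells of both tissues were flow sorted as lin-, Sca-1-, c-kit+, CD150+, CD41+, no treatment was given, and total RNA of each sample was labelled with biotin and hybridised to 1 Affymetrix array. Per the labels these are biological replicates, with the animals or embryos behind each not numbered, so p-values measure the spread between these samples only. In such bulk samples, fewer cells of a type and less RNA per cell cannot be told apart.

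PML is the scaffold of nuclear bodies, small protein assemblies held together by the modifier SUMO, and SP100 is a permanent resident of them that can silence incoming DNA. SP110 is a chromatin reader of the same SP family. PARP enzymes transfer ADP-ribose from NAD+ to proteins. PARP1 and PARP2 are the DNA-break sensors that build long chains, PARP12 and PARP14 add single units, and PARP9 works as a pair with the ubiquitin ligase DTX3L. Type I and type II interferons raise transcription of Sp100, Sp110, Pml, Parp9, Parp12, Parp14 and Dtx3l in many cell types, through STAT and IRF factors that bind paired GAAA elements or TTC and GAA palindromes, whereas Parp1 and Parp2 are housekeeping repair genes.

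Sequence before the annotated starts was read from RefSeq promoter windows of GRCm38.p6, which held entries for 7 of the 9 genes. Parp9 and Parp14 have none in that table. Each window covers 250 bases before and 50 bases after a start. The stretches shown are those of the gene with the largest change, of Sp110 nearby on the same chromosome, of another gene lower in fetal liver and of the gene higher there. Each runs 5' to 3' on the strand of the gene. Capitals mark a run of GAAA elements, read here on the opposite strand as TTTC.
Sp100, chr1:85649738-85649987 (+): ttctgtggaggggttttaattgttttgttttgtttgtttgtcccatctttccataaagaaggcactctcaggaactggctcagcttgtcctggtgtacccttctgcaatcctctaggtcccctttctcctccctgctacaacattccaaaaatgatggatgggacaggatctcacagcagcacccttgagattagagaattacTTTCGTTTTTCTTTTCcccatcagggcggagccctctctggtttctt
Sp110, chr1:85598776-85598805 (-): tcacTTTCATTTTTCTTTTCttgaagcctg
Parp12, chr6:39118350-39118599 (-): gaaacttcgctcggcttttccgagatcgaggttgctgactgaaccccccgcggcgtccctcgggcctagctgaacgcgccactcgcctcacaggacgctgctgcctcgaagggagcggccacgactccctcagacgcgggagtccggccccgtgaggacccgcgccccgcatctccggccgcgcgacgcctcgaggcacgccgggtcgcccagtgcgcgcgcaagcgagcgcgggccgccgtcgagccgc
Parp2, chr14:50807666-50807915 (+): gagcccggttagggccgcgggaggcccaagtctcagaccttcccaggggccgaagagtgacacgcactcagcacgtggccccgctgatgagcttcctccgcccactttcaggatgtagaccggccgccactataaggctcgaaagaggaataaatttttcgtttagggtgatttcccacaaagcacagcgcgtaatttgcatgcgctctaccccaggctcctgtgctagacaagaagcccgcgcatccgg
The Sp100 stretch ends at the base before the start and holds its run from -47 to -32. The Sp110 stretch lies just after its start, inside the transcript, with the run from +10 to +25, where +1 is the start. Sp100 has a second annotated start, from which the same run lies at -73 to -58. The window of a second annotated start of Sp110 held none of the patterns searched. Each run is a match to GAAANGAAANNNGAAA on the strand opposite the gene. On either strand, 19 of 32851 promoter windows (0.0578%), of 16 genes, held it, windows of Sp100 and Sp110 among them. Each run also holds the overlapping pairs GAAANGAAA, found in 3.17% of the windows, and GAAANNNGAAA, found in 2.75%. The standard pair GAAANNGAAA stood in 3.44% of all windows and in none of those of the 9 genes, as did TTCNNNGAA, in 8.30% of all windows. The spacings of 1 and 3 bases and the run of 3 elements were chosen after the sequences were seen. The windows of Pml, Parp12, Dtx3l, Parp1 and Parp2 held none of these letters, which says nothing about sites outside them. The matches are letters in a window, and binding was not measured. In the same build Sp110, Sp140 and Sp100 are adjacent protein-coding genes on chromosome 1, and Parp14, Dtx3l and Parp9 are adjacent on chromosome 16.

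Signals are MAS5 intensities on a linear scale, on which every array had a trimmed mean of 500. Changes are differences of log2(signal + 2.87), fetal liver minus marrow, each given with its SE, the standard error from a limma fit. A signal counts as above background where it exceeds the highest of 27 bacterial control probe sets of its array, which lay between 22.2 and 35.1. Probe sets differ in brightness, so each was compared only with itself. The median signal was 74.1 to 80.2 on the marrow arrays and 62.8 to 65.5 on the fetal arrays, and the 5' to 3' signal ratio of Gapdh, a sign of RNA length, was 0.0990 to 0.303 in marrow and 0.109 to 0.449 in fetal liver. Marrow replicate 2 stood apart from the other 2 marrow arrays on the second principal component of all genes (18.6% of the variance), and results that rest on it are given without it too. All 9 measured marker genes of MkP were above background on all 6 arrays. The summed signal of 11 granulocyte and monocyte markers was 45173 to 65165 in marrow and 5014 to 7115 in fetal liver, with 11 of the 11 above background on each marrow array and 5 to 9 on the fetal arrays. Summed macrophage markers (8 genes) were 320 to 1563 in marrow and 176 to 251 in fetal liver, plasmacytoid dendritic markers (5 genes) 1849 to 2198 and 1540 to 1850, and B and T lymphocyte markers (8 genes) 343 to 588 and 335 to 472. Those of mast cells and basophils (6 genes) were 8414 to 12320 and 2283 to 6220, of the erythroid line (6 genes, Hba-a1 below background on all arrays) 1654 to 1956 and 4565 to 7154, and of hepatocytes (6 genes) 224 to 619 and 526 to 3439. The part of these cells in the differences described here was not tested.

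The comparison of the tissues asks how transcript levels in MkP differ between the fetal and the adult organ. Sp100, Parp12 and Parp14 fell in fetal liver MkP and Parp2 rose, while Sp110, Pml, Parp9, Dtx3l and Parp1 did not pass the threshold of 0.05 on the adjusted p (limma, Benjamini-Hochberg over 11625 genes). Of all genes, 4.76% were past the threshold lower in fetal liver and 3.01% higher. The median change of the 9 genes was -0.86, against 0.01 over all genes tested. Since the genes were chosen on this contrast, nothing is read from that median or from the count of 3 lower and 1 higher. In a second fit over 27022 probe sets, 5 of the 18 probe sets were past the threshold lower (3.28% of all) and 0 higher (1.78% of all). The 5 were both Sp100 probe sets, the Parp12 probe set and both Parp14 probe sets. Without overlap between tissues, 6 of the 18 had every fetal signal below every marrow signal (14.4% of all probe sets tested), and 2 had every fetal signal above (11.1% of all).

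**Figure D1:**
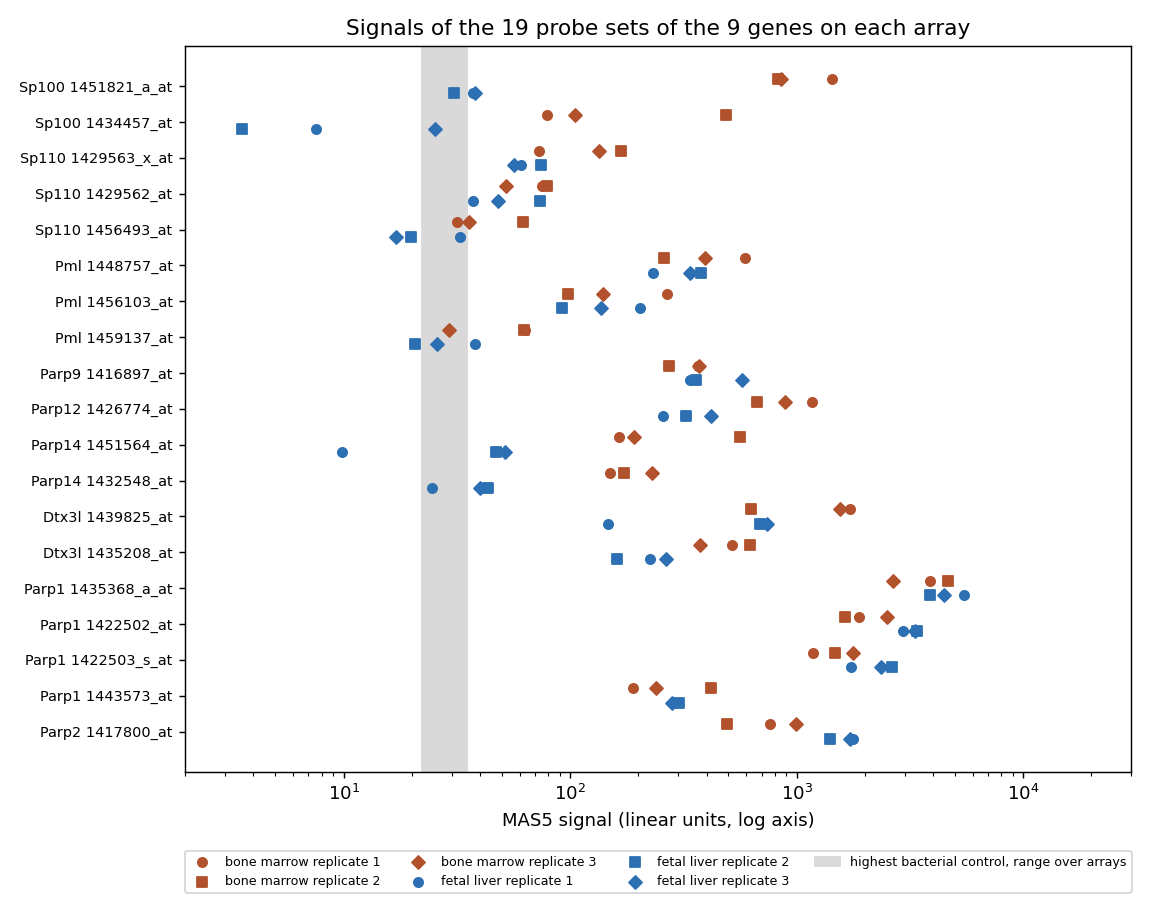
MAS5 signal (linear units on a log axis) of each of the 19 probe sets on each of the 6 arrays, marrow in orange and fetal liver in blue, with the range of the highest bacterial control signal shaded. The Sp100 and Parp14 signals of fetal liver run from below the shaded band to just above it, apart from those of marrow, and the Parp2 signals of fetal liver lie above those of marrow.

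Sp100 had the largest change among the 9 genes. Its brighter probe set, 1451821_a_at, gave signals of 1438, 829.8 and 854 on marrow replicates 1, 2 and 3 and of 37.2, 30.6 and 38.1 on fetal liver replicates 1, 2 and 3. The means were 1040.4 ± 344 (SD, n = 3) and 35.3 ± 4.12, and the mean in marrow was 29.5 times that in fetal liver. Every marrow array was far above every fetal array, and the fetal signals stood just above the bacterial controls of their own arrays. The log2 change was -4.73 ± 0.42 (SE), and it lay between -4.87 and -4.47 when any 1 array was left out, past the threshold each time.

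The second Sp100 probe set, 1434457_at, gave 79.0, 485 and 105 in marrow and 7.54, 3.58 and 25.3 in fetal liver. It was above background on all 3 marrow arrays and on 0 of 3 fetal arrays. With each fetal signal taken no lower than the controls, the log2 mean of the 3 marrow arrays was at least 4.97-fold higher. That bound leans on marrow replicate 2, at 485 against 79.0 and 105, and was not computed without it. The fitted change was -3.72 ± 0.83, with no overlap between tissues. Marrow replicate 2 was the highest marrow array for this probe set and the lowest marrow array for the brighter one. Without marrow replicate 2 the dimmer probe set fell below the filter, and of the other 5 fits without 1 array it passed the threshold in those without marrow replicate 1 and without fetal replicate 3. In the genome Sp100 lies beside near-identical copies of parts of itself, and which copies a probe set reads could not be told from these files.

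Sp110, the chromatin reader, did not pass the threshold, and its tissues overlapped in each probe set. Probe set 1429563_x_at gave 72.9, 167 and 134 in marrow and 60.8, 74.3 and 56.7 in fetal liver, a change of -0.86 ± 0.51. The lowest marrow signal lay below the highest fetal signal. Probe set 1429562_at gave 75.0, 79.1 and 52.3 in marrow and 37.1, 73.5 and 48.2 in fetal liver (-0.39 ± 0.56), again with overlap. The third, 1456493_at, gave 31.8, 62.0 and 35.7 in marrow and 32.6, 19.8 and 17.1 in fetal liver, and was above background on 2 marrow arrays and on 0 fetal arrays. Its mean log2 signal of 5.06 was just under the filter at 5.10, so it was not tested. The suffix of the first probe set marks probes that may also bind other transcripts, and whether it did so is not known from these files.

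Pml, the scaffold gene of the bodies, overlapped between tissues in all 3 of its probe sets. Probe set 1448757_at gave 594, 261 and 393 in marrow and 231, 377 and 337 in fetal liver, a change of -0.35 ± 0.41. Probe set 1456103_at gave 269, 97.4 and 139 in marrow and 204, 91.8 and 137 in fetal liver (-0.17 ± 0.54), with each tissue's highest signal on its replicate 1. The sign of this second change was not stable, since it was 0.08 after centring each array on its median and reached 0.23 with 1 array left out. Probe set 1459137_at gave 63.5, 62.6 and 29.2 in marrow and 38.1, 20.7 and 25.8 in fetal liver (-0.78 ± 0.62), above background on 1 fetal array. The other 2 Pml probe sets were above background on all 6 arrays.

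**Figure D2:**
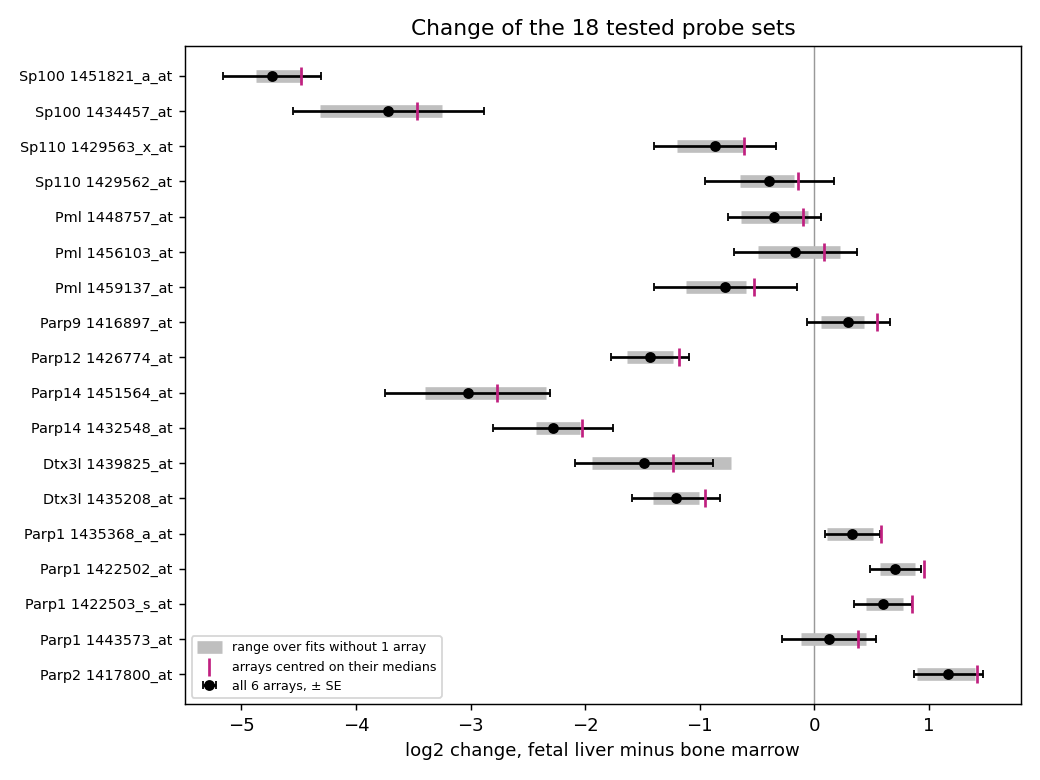
Log2 change, fetal liver minus bone marrow, of the 18 tested probe sets, with points and bars for the fit of all 6 arrays ± SE, grey bands for the range over fits without 1 array and pink ticks for arrays centred on their medians. Sp100 and Parp14 lie farthest below 0, at -4.73 and -3.72 and at -3.02 and -2.28, and Parp2 lies farthest above it at 1.17.

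Parp14, which adds single ADP-ribose units and is known as a cofactor of STAT6, was low in fetal liver in both of its probe sets. Probe set 1451564_at gave 165, 565 and 192 in marrow and 9.82, 47.0 and 51.8 in fetal liver, and 1432548_at gave 149, 172 and 231 in marrow and 24.5, 43.6 and 39.9 in fetal liver. Neither overlapped between tissues, and fetal replicate 1 was the lowest array for both and below the bacterial controls. The changes were -3.02 ± 0.71 for the first, which represents the gene, and -2.28 ± 0.52 for the second. As a gene, Parp14 was past the threshold in 3 of the 6 fits without 1 array. It was not past it without marrow replicate 3 (-3.24), without fetal replicate 1 (-2.34) or without fetal replicate 2 (-3.33). Without marrow replicate 2, where the first probe set was highest, the second became the brighter one and the gene's change was -2.31.

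Parp12, an ADP-ribosyltransferase with zinc fingers that bind RNA, had a single probe set, 1426774_at. It gave 1169, 668 and 887 in marrow and 256, 323 and 417 in fetal liver. All 3 marrow signals lay above all 3 fetal signals, and the mean in marrow was 2.73 times that in fetal liver. The change was -1.43 ± 0.34. Among the fits without 1 array it stayed past the threshold only without marrow replicate 2 (-1.64), with changes from -1.64 to -1.23 over the 6. Leaving out marrow replicate 1, marrow replicate 3 or any fetal array ended it.

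Dtx3l, the ubiquitin ligase that pairs with PARP9, did not pass the threshold, and only 1 of its probe sets separated the tissues. Probe set 1439825_at gave 1724, 632 and 1546 in marrow and 147, 691 and 742 in fetal liver, a change of -1.48 ± 0.60. Marrow replicate 2 lay below 2 of the 3 fetal arrays, and fetal replicate 1 was far below the other 2. Leaving out that fetal array brought the change to -0.73, and leaving out marrow replicate 2 brought it to -1.94. The other probe set, 1435208_at, gave 519, 621 and 376 in marrow and 225, 161 and 265 in fetal liver (-1.21 ± 0.38), with no overlap. Marrow replicate 2 was its highest marrow array. When each gene was taken as the mean of its probe sets, Dtx3l was past the threshold at -1.35.

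Parp9, the partner of DTX3L, showed no such difference. Its probe set 1416897_at gave 368, 274 and 369 in marrow and 339, 358 and 572 in fetal liver, a change of 0.30 ± 0.36. The tissues overlapped, and only fetal replicate 3 lay above all marrow arrays. The change ranged from 0.06 to 0.43 over the fits without 1 array. Parp9, Dtx3l and Parp14 are neighbours on chromosome 16, and their changes were 0.30, -1.48 and -3.02. Whether these changes differ from one another was not tested.

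Parp2, the smaller of the break-sensing enzymes, went the other way. Its probe set 1417800_at gave 759, 493 and 992 in marrow and 1772, 1401 and 1713 in fetal liver. The groups did not overlap, and the fetal mean was 2.18 times the marrow mean (1629 ± 199.6 against 748 ± 249.8, SD, n = 3). The change was 1.17 ± 0.30, and over the fits without 1 array it ran from 0.90 to 1.40. It was past the threshold in the fit of genes with all 6 arrays, and among those with 1 array left out only without marrow replicate 3. Each of the other 5 arrays, left out, ended the call, as did the adjustment over all probe sets.

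Parp1, the main break sensor, had 4 probe sets, each with a positive change that did not pass the threshold. Probe set 1435368_a_at, which represents the gene, gave 3874, 4638 and 2649 in marrow and 5482, 3875 and 4481 in fetal liver (0.33 ± 0.24). Probe set 1422502_at gave 1879, 1630.4 and 2498 in marrow and 2949, 3401 and 3330.4 in fetal liver, the only one of the 4 without overlap (0.71 ± 0.22). Probe set 1422503_s_at gave 1184, 1473 and 1774 in marrow and 1738, 2636 and 2349 in fetal liver, where a single fetal array reached into the marrow range (0.60 ± 0.25). The dimmest, 1443573_at, gave 189, 420.0 and 239 in marrow and 289, 304 and 283 in fetal liver (0.13 ± 0.41), and its change fell as low as -0.12 with 1 array left out.

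When each array was centred on its median, the all-gene median change shifted by 0.25, and the fetal arrays had the lower medians at the same trimmed mean. The 9 genes kept their signs on that scale, from Sp100 at -4.48 to Parp2 at 1.42, although 1 Pml probe set, 1456103_at, did not. Over all genes, 61.2% of the calls were lower in fetal liver as deposited and 32.8% after centring, when 897 genes were higher and 438 lower.

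**Figure D3:**
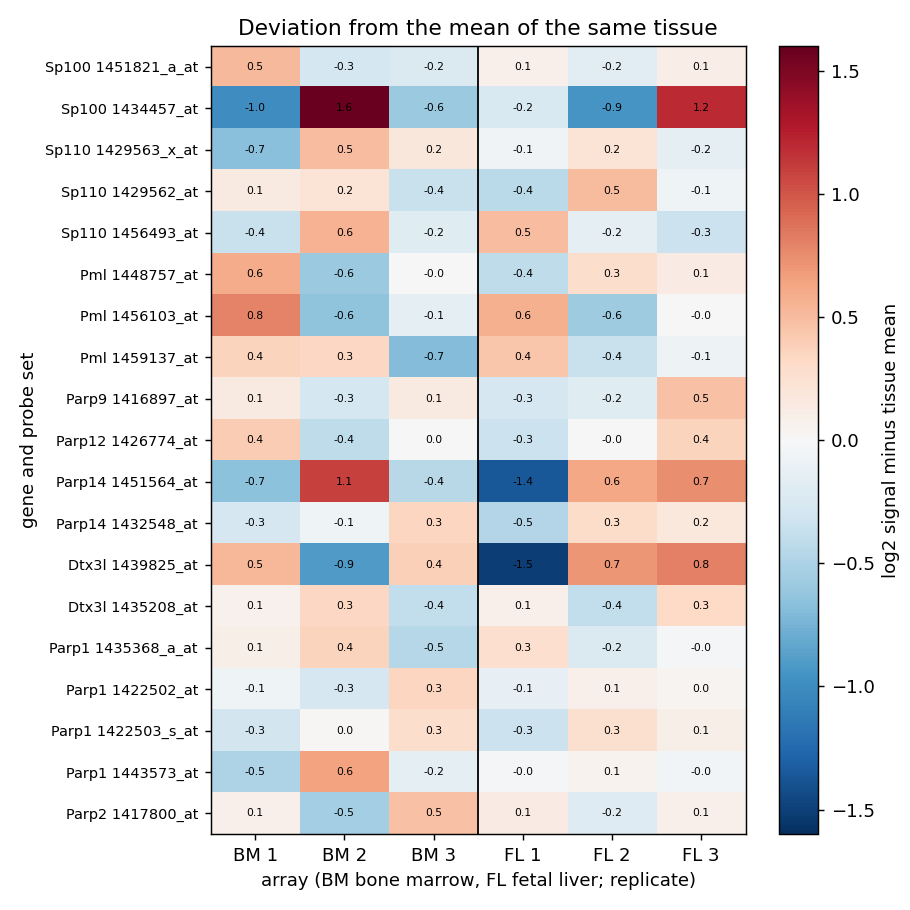
Log2 signal of each of the 19 probe sets on each array minus the mean of the same tissue, red above it and blue below it. The 2 Sp100 probe sets have opposite signs on marrow replicates 1 and 2, and both Parp14 probe sets and Dtx3l 1439825_at are at their fetal lowest on fetal replicate 1.

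Within a tissue, the probe sets of 1 gene did not always move together from array to array. On marrow replicate 2, Sp100 deviated by -0.28 from the marrow mean in the brighter probe set and by 1.58 in the dimmer one. The same array was the highest marrow array for 8 of the 19 probe sets and the lowest for 8. Fetal replicate 1 was the lowest fetal array for 9 of the 19, with deviations of -1.36 for the brighter Parp14 probe set and -1.51 for the brighter Dtx3l probe set. Between the 9 genes, each taken by its probe set of highest mean, these deviations were correlated over the 6 arrays. The genes of a pair share their arrays and scaling. The correlations ran from -0.98 (Sp100 with Sp110) to 0.89 (Pml with Parp12), and 15 of 36 pairs were negative. The -0.98 rests on the brighter Sp100 probe set, and the dimmer one, which moved the other way on marrow replicate 2, was not correlated. The pairs Dtx3l with Parp12 (0.85) and Parp9 with Dtx3l (0.71) were positive, with Dtx3l taken by its brighter probe set alone. That probe set deviated by -0.91 on marrow replicate 2 and by -1.51 on fetal replicate 1. The dimmer Dtx3l probe set deviated by 0.33 and 0.08 there, and it was not correlated with other genes. With 3 arrays a tissue these are descriptions only.

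Over the same 6 arrays, the genes with the most similar log2 pattern to Sp100 were Mefv (Pearson r = 0.996), Psmg2 (0.994) and Adgre5 (0.994), a description dominated by the step between tissues. Mefv, which encodes pyrin, an inflammasome sensor found in neutrophils and monocytes, changed by -4.41, close to the -4.73 of Sp100. Psmg2 and Adgre5 changed by -1.40 and -1.15, so a like pattern did not mean a like size. For Parp14 they were Cdkn1b (0.999), Tpcn1 (0.997) and E230032D23Rik (0.995). For Dtx3l they were Tmem43 (0.995), Dmxl2 (0.987) and Jakmip1 (0.984). For Parp1 they were Pus1 (0.989), Tmem40 (0.989) and Prkci (0.985). For Parp2 they were Mrps21 (0.996), Psmc3ip (0.995) and Mrpl3 (0.995), the first and the third being genes of mitochondrial ribosomal proteins.

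Genes of the pathways around these 9 were counted in the same limma fit, at the same background of 4.76% lower and 3.01% higher. Of 10 tested genes of the rest of the PARP family, 1 fell and 0 rose, and 7 had negative changes, with a median of -0.47. At an unadjusted p of 0.05, 3 were lower and 0 higher. The gene that fell was Parp8, a little-studied single-unit transferase, which gave 97.3, 274 and 245 in marrow and 14.5, 28.1 and 34.4 in fetal liver. Its change was -2.81 ± 0.60 (limma adjusted p = 0.0183, 0.0145 to 0.0595 over the alternatives), in 3 of 3 fetal arrays below all marrow arrays. Leaving out marrow replicate 2 or 3 or fetal replicate 1 or 2 ended the call. The count of 1 lower became 3 when the probe sets of a gene were averaged, 2 without the intensity trend, 2 with a replicate block and 0 with a filter at the 60th percentile, which left fewer genes.

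Of 10 tested genes that read or remove ADP-ribose, 1 fell and 0 rose, with a median change of 0.17. Macrod1, a mitochondrial hydrolase that removes single ADP-ribose units, gave 910.0, 635 and 871 in marrow and 296, 190.5 and 335 in fetal liver. Its change was -1.57 ± 0.35 (limma adjusted p = 0.0224, 0.0125 to 0.104 over the alternatives), with no overlap, and it was past the threshold only without marrow replicate 2 or fetal replicate 1 among the fits without 1 array. Unadjusted, 1 gene was lower and 3 higher at 0.05, and after median centring 2 genes of this list were past the threshold higher.

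None of the 11 tested partners of PARP1 and PARP2 in single-strand break repair passed limma's threshold, and 0 did at an unadjusted p of 0.05. Their median change was 0.12. Those with the smallest p were Tdp1, which frees the 3' end of a break, at 0.85 ± 0.41 (limma adjusted p = 0.250, 0.110 to 0.480 over the alternatives), and Lig3, which seals it, at 0.54 ± 0.28 (limma adjusted p = 0.284, 0.0935 to 0.592). Tdp1 gave 127, 287 and 239 in marrow and 378, 371 and 376 in fetal liver. Lig3 gave 480.0, 637 and 712 in marrow and 884, 842 and 901 in fetal liver. Both were above all marrow signals on 3 of 3 fetal arrays.

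Of 19 tested genes of PML nuclear bodies, the SUMO pathway and their partners, 0 passed limma's threshold in either direction, with 2 lower and 3 higher at an unadjusted p of 0.05 and a median change of 0.05. Hipk2, a kinase recruited to the bodies, gave 3253, 4170.4 and 3443 in marrow and 7311, 5371 and 5092 in fetal liver, higher on 3 of 3 fetal arrays, at 0.70 ± 0.20 (limma adjusted p = 0.0597, 0.0163 to 0.186 over the alternatives). Morc3, an ATPase that enters the bodies, gave 1978, 1470.1 and 1046 in marrow and 925, 764 and 805 in fetal liver, at -0.80 ± 0.28 (limma adjusted p = 0.117, 0.0559 to 0.389). After median centring, 2 genes of this list were past the threshold higher.

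Of 3 tested relatives of Dtx3l in the deltex family, 1 fell and 0 rose, and at an unadjusted p of 0.05 the counts were the same. Dtx4, a ubiquitin ligase linked to NOTCH, gave 285, 269 and 744 in marrow and 28.8, 15.1 and 28.9 in fetal liver, above background on 1 fetal array. The change was -3.88 ± 0.56 (limma adjusted p = 0.00273, 0.00220 to 0.150 over the alternatives), with no overlap. As a gene, Dtx4 was not past the threshold when any 1 marrow array was left out, and its change then reached as little as -1.41. The probe set of highest mean was chosen anew in each fit. The signals printed here do not give -1.41, so another Dtx4 probe set stood for the gene at that value. Those fits do not show how the printed probe set depends on a single marrow array.

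Of 12 tested genes of the relay from interferon receptors to transcription, 2 fell and 0 rose, 10 had negative changes, and the median was -0.53. Unadjusted, 4 were lower and 0 higher at 0.05. Irf1, a transcription factor that binds the paired GAAA element, gave 1151, 1118 and 1135 in marrow and 307, 187 and 379.8 in fetal liver. It changed by -2.01 ± 0.33 (limma adjusted p = 0.00545, 0.00343 to 0.0219 over the alternatives) and was past the threshold in each of the 6 fits without 1 array. Ifnar2, a chain of the type I interferon receptor, gave 2343, 1855 and 2379 in marrow and 956, 907 and 1056 in fetal liver. Its change was -1.16 ± 0.22 (limma adjusted p = 0.0108, 0.00957 to 0.212), and leaving out fetal replicate 2 ended the call. Both genes were lower on 3 of 3 fetal arrays.

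Of 21 tested interferon-stimulated genes outside the 9, 5 fell and 0 rose, 19 had negative changes, and the median was -0.74. Unadjusted, 9 were lower and 0 higher at 0.05. The full list held 30 genes, 28 of them with a symbol on the array. Isg15, Ifit1, Mx1, Mx2, Oas3, Oasl1, Oasl2, Ifi44 and Zbp1 were not tested, most of them for falling below the filter. Because the filter takes the mean over all 6 arrays, a gene dim in fetal liver could pass through its marrow signals. The counts and the median therefore cover the tested genes alone. Rsad2, which makes an antiviral nucleotide, gave 481, 930.3 and 682 in marrow and 6.81, 7.60 and 50.2 in fetal liver, above background on 1 fetal array. It changed by -5.27 ± 0.69 (limma adjusted p = 0.00139, 0.000580 to 0.0115 over the alternatives) and was past the threshold when any 1 array was left out. With 2 fetal signals below the controls the size is uncertain, and it ran from -6.07 to -3.55 over the alternatives. Xaf1, an inhibitor of an apoptosis blocker, gave 281, 361 and 326 in marrow and 2.67, 54.1 and 80.7 in fetal liver, a change of -3.44 ± 0.88 (limma adjusted p = 0.0406, 0.0167 to 0.107). Dhx58, an RNA sensor, changed by -2.37 ± 0.64 (limma adjusted p = 0.0496, 0.0382 to 0.276) and Ifit2, which binds foreign RNA, by -1.04 ± 0.27 (limma adjusted p = 0.0401, 0.0249 to 0.169). Trim21, an antibody receptor inside cells, was the fifth at -1.04 ± 0.25 (limma adjusted p = 0.0346, 0.0227 to 0.153). All 5 were lower on 3 of 3 fetal arrays than on any marrow array. The count of 5 ran from 1 to 5 with 1 array left out, at 1 without marrow replicate 1 and without marrow replicate 2, 2 without marrow replicate 3, 3 without fetal replicate 2 and 4 without fetal replicate 3. It was 7 with an offset of 16, 2 after quantile normalization, 2 after median centring, 2 with a filter at the 60th percentile and 1 without the intensity trend. Among the 6 fits without 1 array, Dhx58 and Ifit2 were not past the threshold in any. Xaf1 was past it there only without fetal replicate 1 or 3, and Trim21 only without fetal replicate 1.

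**Figure D4:**
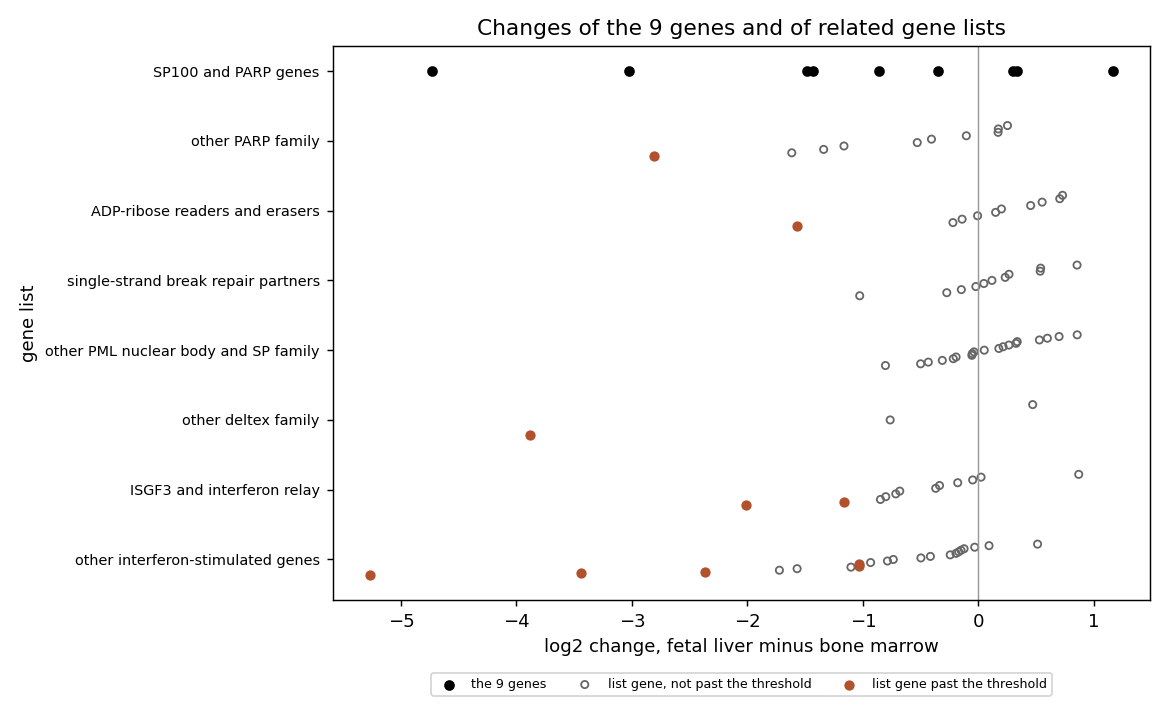
Log2 change, fetal liver minus bone marrow, of the 9 genes (black) and of each tested gene of 7 related lists, filled where past the limma threshold and open where not. The 5 filled points of the interferon-stimulated genes lie between -5.27 and -1.04, and the break repair partners have no filled point.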

How the data were processed

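Expression was measured in 6 samples of sorted MkP, 3 of bone marrow and 3 of fetal liver, with 1 array each, and groups were taken from the labels alone. The authors deposited linear intensity values, 1 per probe set and array, which come from MAS5 according to the submitters' processing notes. Its version and target level were not given in the sources used here. No detection calls were used, and the number of arrays limits the precision.

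From these, log2(signal + 2.87) was computed, the offset being the 10th percentile of all signals, and a change on this scale understates that of dim genes. Probe sets with a mean above the 40th percentile were kept, 27022 of 45037. Of all, 34945 had 1 symbol in the platform annotation, 932 several and 9160 were unnamed here. Each gene is its kept probe set of highest mean. Tests used limma 3.58.1 in R 4.3.3 (lmFit, eBayes with an intensity trend, Benjamini-Hochberg), checked on simulated data. Figures were drawn with matplotlib 3.10.9.

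The 9 genes, the gene lists and the tests were chosen with earlier results of these data known. Named are all probe sets of the 9 genes, from each list at most 4 genes past the threshold or, with none, the 2 of smallest p, and the 3 most similar genes to Sp100, Parp14, Dtx3l, Parp1 and Parp2. Trim21 was named after its value was seen, to complete a count of 5. The alternatives were another offset (16), no filter, a filter at the 60th percentile, quantile normalization, median centring, no trend, averaging a gene's probe sets, a replicate block and each array left out.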

Additional observations from a re-analysis of the deposited data

How the results depend on the processing

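Over 14 alternatives, the changes of the 9 genes kept their direction in 124 of 124 values, and Sp100 was past the threshold in all 14. Parp14 was past it in 9 of 13, Parp12 in 8 of 14 and Parp2 in 7 of 14. The member probe sets past the threshold lower, 5 with all arrays, were 3 without the filter, 2 with the 60th percentile filter, 3 after quantile normalization and 2 without the trend, and 1 to 2 with 1 array left out. Those higher, 0 with all arrays, were 1 with the offset of 16, 1 with the 60th percentile filter and 2 after median centring, and 0 to 1 with 1 array left out. The member genes lower, 3 with all arrays, were 1 without the trend and 1 to 3 with 1 array left out, and the one higher was 0 without the filter, 0 without the trend and 0 to 1 with 1 array left out. Over all genes, the 350 higher were 897 after median centring, 166 without the trend and 102 to 320 with 1 array left out, and the 553 lower were 317 to 451 with 1 array left out. The causes were not tested. Dim signals in fetal liver, among them those of Sp100, both Parp14 probe sets, Sp110 1456493_at, Pml 1459137_at, Rsad2 and Dtx4, are limited by the background, since they lie near or below the bacterial controls.

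In a fit with a replicate block, 1 member probe set was past the threshold higher. Same-numbered samples deviated together with correlations of 0.12, -0.02 and 0.10, which does not pair them.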
